A study of Mus musculus with 10 samples.

Results

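The genes described here mark the parts of the kidney tubule beyond the proximal tubule. They are 36 genes in 5 sets: 6 genes of the loop of Henle (its thick ascending limb), 10 of the distal tubule, 13 of collecting duct principal cells and their ureteric lineage, 3 of the acid- or base-secreting intercalated cells, and 4 keratin and urothelial genes. They were taken by gene name from the 34650 gene names of the array, where 46 of its 55681 gene probes carry one of these names. The rule that picks them uses gene names and no measured value.

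The thick ascending limb takes up salt through the cotransporter encoded by Slc12a1 and secretes uromodulin, the product of Umod. The distal convoluted tubule fine-tunes sodium, calcium and magnesium, and the collecting duct takes up sodium through the channel ENaC and water through aquaporins. In development the loop and distal tubule arise from Six2-expressing nephron progenitors, whereas the collecting duct arises from the ureteric bud, a separate lineage that does not express Six2.

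Cells came from Six2-GFP transgenic mice on a C57BL6J/ICR background, in which green fluorescent protein marks the progenitors, and every group carried the transgene. Cells were separated by flow cytometry into 5 groups of 2 samples, 1 array each: GFP-positive E11.5 embryo cells (E11.5 progenitors), GFP-positive newborn cells (P0 progenitors), GFP-negative newborn cells (P0 non-progenitors), and GFP-positive E11.5 cells grown for 8 or 19 days in conditioned medium. The labels give the tissue as embryo throughout, and whether cultured cells were sorted again, or whether replicates came from separate litters or cultures, is not stated, so p-values measure only the spread between these samples. The GFP-negative newborn sort is all remaining cells, and in bulk samples such as these fewer cells of a type and less RNA per cell cannot be told apart.

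Levels are log2 intensities relative to the 75th percentile of the same array, and the 2 values of a group are given in replicate order. Between 60.4% and 69.8% of spots lay well above background on each array, and levels below about -4.05 to -4.71, depending on the array, were at or under the dimmest signal accepted as above background. The software's stand-in for an undetected signal made up 66 of the 360 member values. A level compared with a group that was above background on neither array is given as "at least" a fold, taken from that dimmest accepted signal. Six2, the gene whose activity the reporter marks, was at 4.27 and 4.11 in P0 progenitors and at -2.26 and -4.55 in P0 non-progenitors, a difference of 7.60 ± 0.71 (SE, adjusted p = 0.0017). It was at 4.70 and 4.82 in E11.5 progenitors, 5.21 and 4.60 after 8 days and 1.06 and 2.31 after 19 days.

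Of the 36 genes, 34 were well above background on both arrays of P0 non-progenitors. The count was 25 in P0 progenitors, 11 in E11.5 progenitors, 15 after 8 days and 18 after 19 days of culture. All 6 loop genes, 13 of 13 collecting duct genes and 3 of 3 intercalated cell genes were above background on both arrays in P0 non-progenitors, against 1, 4 and 2 in E11.5 progenitors. Upk1b, a urothelial plaque protein gene, was above background on no pair of arrays and was not tested, which left 35 tested genes.

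**Figure D1:**
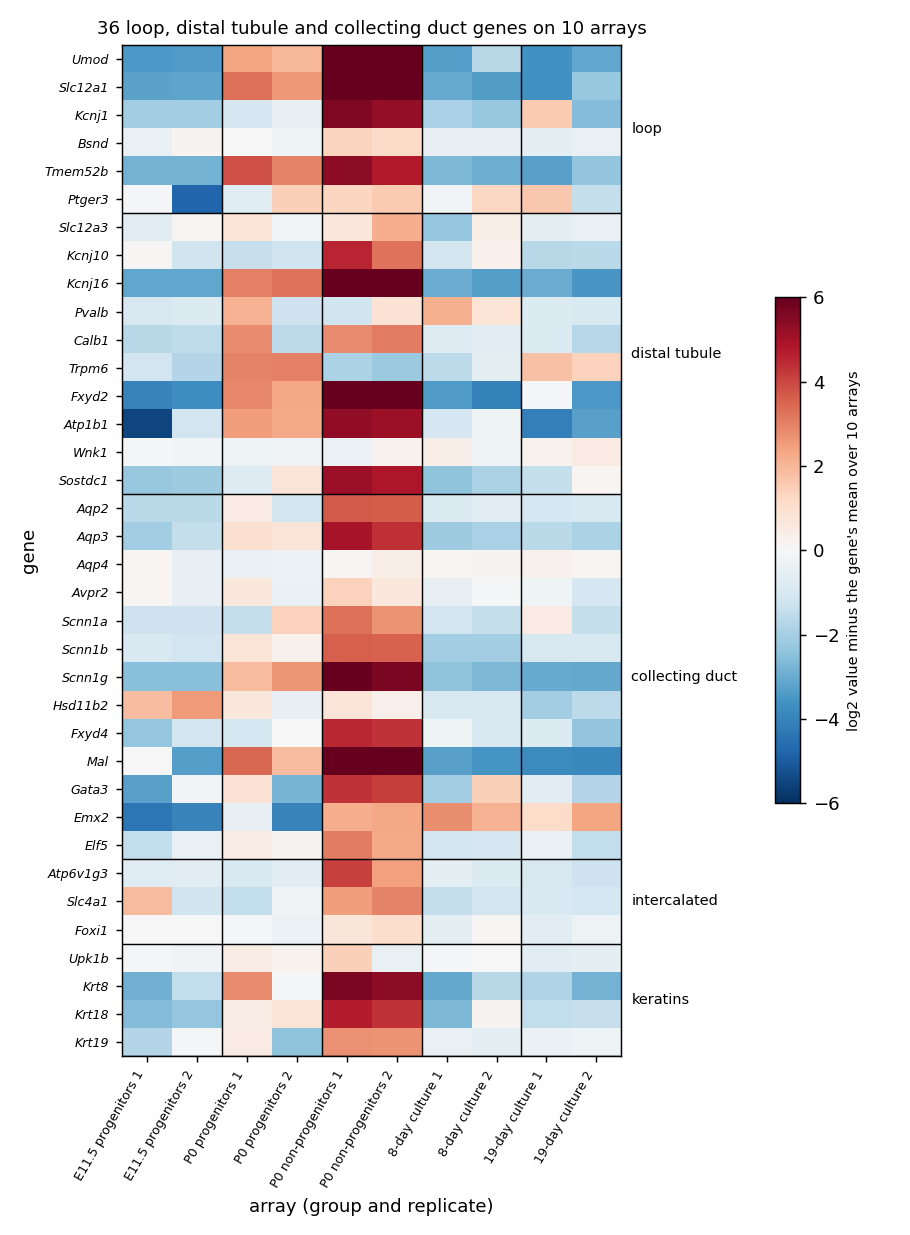
Log2 level of each of the 36 genes (rows, grouped by segment) on each of the 10 arrays (columns), minus the mean of that gene over the 10 arrays. Colours stop at 6 on either side of the mean; most rows are reddest in P0 non-progenitors, 19-day Emx2 and 8-day Emx2 are also above their mean, and Trpm6 is reddest in P0 progenitors.

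The first comparison asks how newborn progenitors differ from the rest of the newborn sort. Of the 35 tested genes 18 were lower in P0 progenitors, 1 was higher and 16 did not pass (limma, Benjamini-Hochberg adjusted p under 0.05 over all 26277 tested genes). Over all tested genes 4.18% were lower and 4.25% higher, 8.43% in all; 50.5% of the called genes were higher, and 34.9% after quantile normalization. The median log2 difference was -3.45 over the 35 genes and 0.10 over all genes. The lists of other cell types were lower too: 5 of 5 proximal tubule, 4 of 4 podocyte, 4 of 4 endothelial, 3 of 3 tested erythroid and 3 of 4 stromal markers. The summed linear level of the erythroid markers was 15.4 and 10.3 in P0 progenitors against 686 and 598, that of the proximal tubule markers 2.72 and 0.983 against 60.1 and 65.7, that of the podocyte markers 1.43 and 1.32 against 13.2 and 15.2, that of the endothelial markers 3.77 and 3.94 against 23.7 and 20.6, and that of the stromal markers 6.85 and 4.29 against 37.5 and 45.5. Of the leukocyte markers 1 of 4 was lower, and their sums of 19.3 and 17.5 against 15.7 and 17.8 overlapped. Those sums came mostly from Csf1r, which lay between 3.78 and 4.19 on every array, so they say little about leukocyte content. Fcer1g was at -2.08 and -3.67 in P0 progenitors against 0.46 and 1.01. The part of all these cell types in the differences below was not tested.

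Among the loop genes 4 of 6 were lower in P0 progenitors. Umod, which encodes the most abundant protein of normal urine, stood at -0.44 and -0.80 in P0 progenitors and at 4.03 and 4.55 in P0 non-progenitors. It was 30.0-fold lower (log2 difference -4.91 ± 0.56, adjusted p = 0.0032), and both progenitor arrays were still far above the E11.5 values of -6.25 and -6.21. Slc12a1, the sodium-potassium-chloride cotransporter of this segment and the target of loop diuretics, was at -0.06 and -0.76 against 2.94 and 3.13. That was 10.9-fold lower (-3.45 ± 0.51, adjusted p = 0.0083).

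Kcnj1, which encodes the ROMK channel that recycles potassium for Slc12a1, was above background on neither P0 progenitor array (-5.25 and -4.74) and at 1.34 and 1.02 in P0 non-progenitors, at least 43.8-fold lower (adjusted p = 0.018). Its loop companions Umod and Slc12a1 were above background on both P0 progenitor arrays, but Kcnj1 was also dimmer than both in P0 non-progenitors. The P0 progenitor level was at most 2.28% of the P0 non-progenitor level for Kcnj1, 3.33% for Umod and 9.15% for Slc12a1. Whether these shares differ was not tested. Bsnd, the barttin subunit of the basolateral chloride channels, differed least among those that passed, at -1.95 and -2.21 against -0.64 and -0.82 (2.56-fold lower, adjusted p = 0.043). Tmem52b, a membrane protein gene of this part of the tubule, was at 0.23 and -0.66 against 1.75 and 1.16, so its level in P0 progenitors was 31.5% of that in the other sort, and the difference of -1.67 ± 0.48 did not pass (adjusted p = 0.084). Ptger3, a prostaglandin E2 receptor gene, overlapped between the sorts by the probe used. A second, dimmer Ptger3 probe did not overlap, at -4.40 and -3.74 in P0 progenitors against -3.15 and -2.96.

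The distal tubule genes split. Of 10, 4 were lower in P0 progenitors, 1 was higher and 5 did not pass. Kcnj16, a basolateral potassium channel subunit, was at -0.21 and 0.01 in P0 progenitors against 3.01 and 3.12 in P0 non-progenitors, 8.95-fold lower (-3.16 ± 0.35, adjusted p = 0.0028). Kcnj10, the subunit with which it pairs, was above background on neither P0 progenitor array (-6.63 and -6.41) against -0.68 and -1.97, at least 7.76-fold lower (adjusted p = 0.0060). Only Kcnj16 was detected in P0 progenitors, but Kcnj10 was also the dimmer of the 2 in P0 non-progenitors. The P0 progenitor level was 11.2% of the P0 non-progenitor level for Kcnj16 and at most 12.9% for Kcnj10. These values do not show that the 2 partners differed in how far they were lower.

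Fxyd2, the gamma subunit of the sodium pump, was at 2.38 and 1.82 in P0 progenitors and at 6.23 and 6.35 in P0 non-progenitors, 18.3-fold lower (-4.19 ± 0.91, adjusted p = 0.032). Sostdc1, a secreted antagonist of BMP and Wnt signals, was at -2.50 and -0.94 against 3.38 and 3.11, 31.3-fold lower (-4.97 ± 0.64, adjusted p = 0.0052). Atp1b1, the beta subunit of the sodium pump, was at 1.55 and 1.31 against 4.34 and 4.17; the arrays did not overlap but the difference of -2.83 ± 1.19 did not pass (adjusted p = 0.22). Slc12a3, the thiazide-sensitive cotransporter that defines the distal convoluted tubule, was dim everywhere: it reached -3.27 and -1.76 in P0 non-progenitors, -3.13 and -4.10 in P0 progenitors and overlapped between them. Calb1 (calbindin), Pvalb (parvalbumin), both calcium-binding, and Wnk1, a kinase that regulates the cotransporters, also overlapped by the probes used. A second, dimmer Calb1 probe did not overlap, at -6.38 and -6.32 in P0 progenitors against -4.12 and -3.57.

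Trpm6, the magnesium channel of the distal convoluted tubule, ran the other way. It was at -1.80 and -1.73 in P0 progenitors and above background on neither P0 non-progenitor array (-6.67 and -6.98). It was thus at least 6.89-fold higher in P0 progenitors (log2 difference 5.06 ± 0.48, adjusted p = 0.0019), while Slc12a3, of the same segment, did not pass. A single probe reports it, at chr19:18966941-18967000 of mm9 (+ strand); which exon or untranslated region each probe covers was not analysed here.

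Of the 13 collecting duct genes 7 were lower and 0 higher (limma, with 10 and 0 at an unadjusted p under 0.05). Here and below, the share of all tested genes at an unadjusted p was not counted, so these counts have no background. Aqp2, the vasopressin-regulated water channel of principal cells, was at 0.44 and -1.16 in P0 progenitors and at 3.60 and 3.58 in P0 non-progenitors, 15.4-fold lower (-3.95 ± 0.47, adjusted p = 0.0037). Aqp3, the water channel of their basolateral membrane, was at -0.20 and -0.37 against 3.80 and 3.25, 14.0-fold lower (-3.81 ± 0.35, adjusted p = 0.0016). Both progenitor arrays lay below both other arrays for each.

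The 3 ENaC subunits were measured separately. Scnn1g was at -1.66 and -0.90 against 2.40 and 2.08 (lower by a log2 difference of -3.52 ± 0.39, adjusted p = 0.0028). Scnn1b was at -3.25 and -3.78 against -0.42 and -0.46 (8.45-fold lower, adjusted p = 0.0035). Scnn1a was at -6.57 and -3.73 against -1.80 and -2.40, a difference of -3.04 ± 0.97 that did not pass (adjusted p = 0.11). The beta and gamma subunits passed, and for the alpha subunit the progenitor arrays lay apart from each other.

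Fxyd4, a principal cell regulator of the sodium pump, was at -3.08 and -2.03 against 2.50 and 2.33, 31.3-fold lower (adjusted p = 0.0058). Elf5, a transcription factor of principal cells, was at -3.43 and -3.73 against -0.82 and -1.60, 5.18-fold lower (adjusted p = 0.039). Emx2, a transcription factor needed by the ureteric bud, was at -2.35 and -5.86 against 0.33 and 0.45, 22.6-fold lower (adjusted p = 0.037). Gata3, which ureteric epithelium also needs, showed the same split of the progenitor arrays, -2.13 and -5.79 against 1.33 and 1.16, and its larger difference of -5.20 ± 1.59 did not pass (adjusted p = 0.097). Mal, a proteolipid of apical membrane traffic, was at 0.67 and -0.91 against 3.59 and 3.37 and did not pass (-3.60 ± 1.00, adjusted p = 0.075). Hsd11b2, the enzyme that keeps cortisol-type steroids off the mineralocorticoid receptor, overlapped between the sorts, at -1.90 and -3.06 against -1.79 and -2.25. Avpr2, the vasopressin receptor, was near the detection limit, and Aqp4 was between -2.02 and -1.12 on every array by the probe used. A second Aqp4 probe disagreed, standing at -0.52 and 0.69 in P0 non-progenitors and at -3.48 and -1.37 in P0 progenitors.

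Of the intercalated cell genes, Atp6v1g3, a subunit of the proton pump, was above background only in P0 non-progenitors (-1.38 and -3.05), at least 4.19-fold above P0 progenitors (adjusted p = 0.0077). Among the called genes, Kcnj1, Kcnj10 and Atp6v1g3 were above background on both arrays of P0 non-progenitors and of no other group. They entered the tests only through the group where they were high, which favours a call of lower here and in the last comparison. Slc4a1, the chloride-bicarbonate exchanger that intercalated cells share with red cells, was at -2.33 and -1.03 in P0 progenitors and at 1.68 and 2.15 in P0 non-progenitors (adjusted p = 0.053), where the erythroid sums above were also high. Foxi1, the transcription factor of intercalated cells, lay between 0.33 and 2.06 on all 10 arrays. It was at 0.91 and 0.61 in P0 progenitors against 1.71 and 2.06 in P0 non-progenitors. Its P0 progenitor level was 45.8% of the other, and the difference did not pass. Among the keratins, which form the filaments of simple epithelia, Krt8 was 17.8-fold lower (adjusted p = 0.048) and Krt18 14.8-fold lower (adjusted p = 0.026) in P0 progenitors, and Krt19 did not pass (-3.66 ± 0.91, adjusted p = 0.0502).

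**Figure D2:**
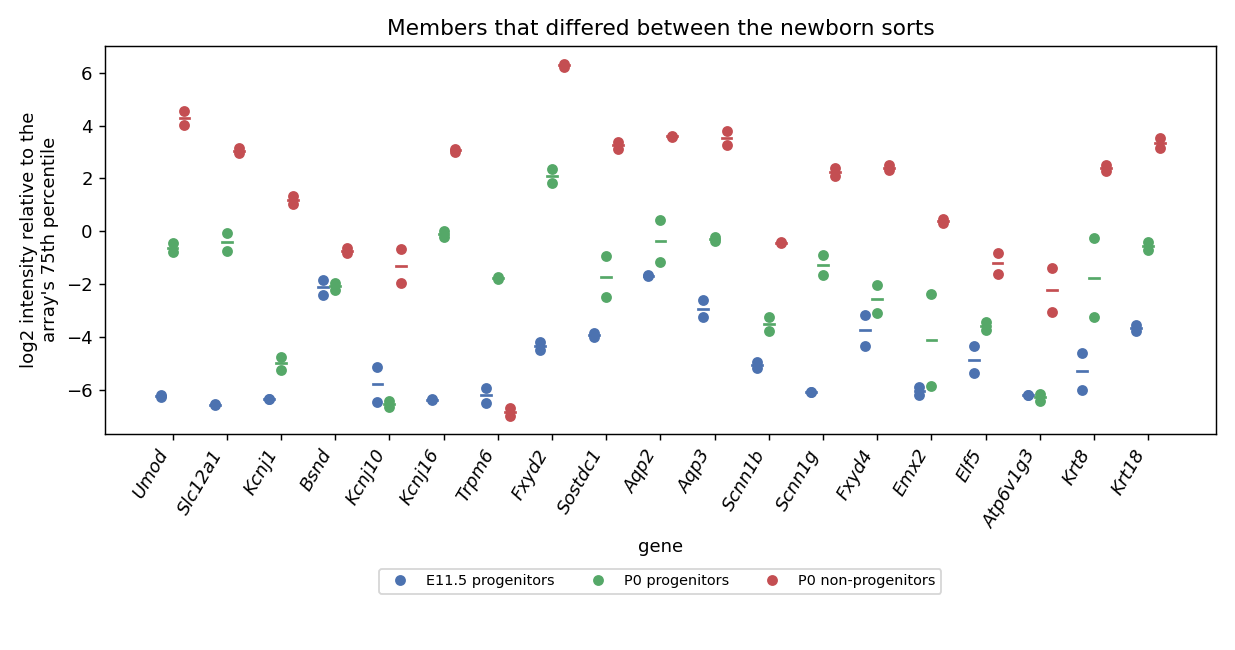
Level (log2 intensity relative to the 75th percentile of the array) of the 19 genes that passed between the newborn sorts, in E11.5 progenitors, P0 progenitors and P0 non-progenitors; points are arrays and bars are means of 2. For 18 genes both P0 non-progenitor points lie above both P0 progenitor points, and for Trpm6 below them; levels are not comparable between genes.

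Of these calls 10 (Umod, Kcnj10, Kcnj16, Trpm6, Sostdc1, Aqp2, Aqp3, Scnn1b, Scnn1g and Fxyd4) passed under each of 13 other settings. The count of members that passed was 15 without P0 progenitor replicate 1, 11 without P0 progenitor replicate 2, 12 without P0 non-progenitor replicate 1 and 11 without P0 non-progenitor replicate 2. Bsnd, Kcnj1, Fxyd2, Elf5 and Krt18 failed without any one of the 4 arrays, with adjusted p of up to 0.21, 0.11, 0.17, 0.19 and 0.14. Emx2 and Krt8 failed without 3 of the 4 arrays (up to 0.16 and 0.20), all but P0 progenitor replicate 1; without P0 progenitor replicate 2 their differences shrank to -2.75 and -2.66. Slc12a1 failed without P0 progenitor replicate 2 or P0 non-progenitor replicate 2, and Atp6v1g3 without P0 progenitor replicate 1. Atp6v1g3 also failed with another background correction (normexp), where its log2 difference was only -0.86 (limma, adjusted p = 0.074).

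The P0 progenitor arrays lay apart for some members. Over all 35 tested, replicate 1 was above replicate 2 by more than 1 log2 unit for 10 and below it by as much for 5. These were 0 and 1 of 6 loop genes, 2 and 1 of 10 distal tubule genes, 6 and 2 of 13 collecting duct genes, 0 and 1 of 3 intercalated genes and 2 and 0 of 3 keratins. The gaps were widest for Calb1 (0.52 and -3.92), Gata3 (-2.13 and -5.79), Emx2 (-2.35 and -5.86), Pvalb (1.58 and -1.76), Krt8 (-0.27 and -3.24) and Krt19 (-2.10 and -5.01). Scnn1a and Ptger3 ran the other way. A second probe of 3 of these genes was dim, above background on 2 of 10 arrays for Calb1, 1 for Pvalb and 3 for Krt8. By it Calb1 was at -6.38 and -6.32, Pvalb at -6.72 and -6.51, and Krt8, with the gap turned, at -5.06 and -2.48. The proximal tubule transporter Slc34a1 was also higher in replicate 1 (0.28 and -2.71).

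**Figure D3:**
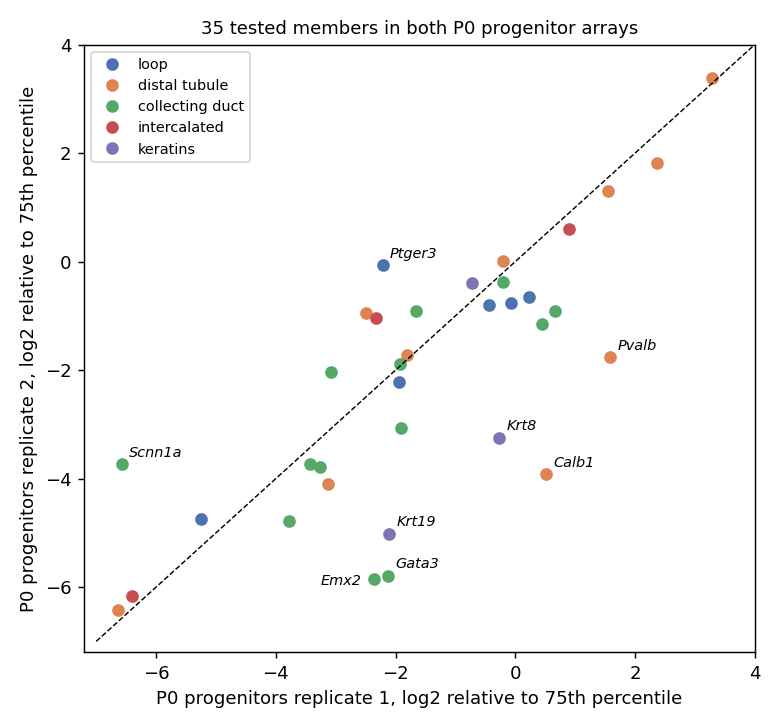
Log2 level relative to the 75th percentile in P0 progenitor replicate 1 (horizontal axis) and replicate 2 (vertical axis) for the 35 tested genes, coloured by segment; the dashed line marks equal levels and genes more than 2 log2 units from it are named. Calb1, Gata3, Emx2, Krt8, Krt19 and Pvalb lie below the line, and Ptger3 and Scnn1a above it.

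The next comparison follows progenitors from E11.5 to birth. Of the 35 genes 9 were higher in P0 progenitors and 0 lower, where 2.04% of all tested genes were higher and 1.93% lower, 3.97% in all; 51.4% of the called genes were higher, and 65.5% after quantile normalization. With limma's unadjusted p under 0.05, 15 were higher and 1, Hsd11b2, lower. The shares above are for adjusted p and are no background for these counts. The median difference was 1.36 over the members and -0.12 over all genes. P0 progenitors serve in both newborn comparisons, so the counts of this one and the one above are not independent.

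Of the 6 loop genes 3 rose, and each was above background on neither E11.5 array. Umod went from -6.25 and -6.21 to -0.44 and -0.80, at least 12.2-fold (log2 difference 5.61 ± 0.56, adjusted p = 0.0046). Slc12a1 went from -6.57 and -6.54 to -0.06 and -0.76, at least 14.0-fold (6.15 ± 0.51, adjusted p = 0.0026). Tmem52b went from -6.47 and -6.43 to 0.23 and -0.66, at least 16.1-fold (6.24 ± 0.48, adjusted p = 0.0020). For all of them the newborn progenitors sat between the E11.5 progenitors and the P0 non-progenitors.

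Of the 10 distal tubule genes 4 rose. Kcnj16 went from -6.39 and -6.35 to -0.21 and 0.01, at least 17.4-fold (6.27 ± 0.35, adjusted p = 0.00066). Fxyd2 went from -4.48 and -4.20 to 2.38 and 1.82, at least 79.8-fold (adjusted p = 0.014). Trpm6 went from -5.92 and -6.49 to -1.80 and -1.73, at least 5.50-fold (adjusted p = 0.0064). Atp1b1 was higher by 5.72 ± 1.19 (52.7-fold, adjusted p = 0.045), but its E11.5 arrays stood apart at -6.47 and -2.11, only the second of them above background.

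In the collecting duct set 2 of 13 rose. Scnn1g went from -6.09 and -6.07 to -1.66 and -0.90, at least 7.70-fold (4.80 ± 0.39, adjusted p = 0.0023). Aqp3 went from -3.25 and -2.59 to -0.20 and -0.37, 6.23-fold (adjusted p = 0.011). Mal (4.29 ± 1.00, adjusted p = 0.064), Scnn1b (1.53 ± 0.36, adjusted p = 0.066) and Aqp2 (1.32 ± 0.47, adjusted p = 0.18) lay above E11.5 on both arrays and did not pass. Hsd11b2 lay below, at -1.90 and -3.06 from -0.69 and -0.02 (-2.13 ± 0.48, adjusted p = 0.059). Of the intercalated genes 0 of 3 and of the keratins 0 of 3 passed in limma's test (0 and 2 at an unadjusted p under 0.05); Krt18 was 3.10 ± 0.80 higher (adjusted p = 0.085) and Krt8 3.53 ± 1.01 (adjusted p = 0.11). Among the markers of other cells, 1 of 5 proximal tubule and 1 of 4 podocyte genes rose and 0 of 3 tested erythroid, 0 of 4 endothelial and 0 of 4 stromal genes (2, 1 and 0 at an unadjusted p under 0.05, by limma); the summed proximal tubule level was 2.72 and 0.983 here against 2.08 and 0.546 at E11.5. Their part in these rises was not tested.

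Umod, Slc12a1, Tmem52b, Kcnj16 and Scnn1g passed under each of 13 other settings, and the other 4 did not. Without P0 progenitor replicate 1 the count was 5 (from 9), Fxyd2, Atp1b1, Aqp3 and Trpm6 failing with adjusted p of 0.099, 0.21, 0.087 and 0.056. Without P0 progenitor replicate 2 it was 6, the same 4 genes failing at 0.089, 0.20, 0.079 and 0.060 and Calb1 passing (0.032).

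The 250 bases before the annotated start of those 5 genes (RefSeq, GRCm38.p6, 5′ to 3′ on the strand of the gene) are shown because they were the members that rose under every setting. Capitals mark GTTAAT or its reverse complement ATTAAC, the half-site of HNF1 factors, which act in renal tubule epithelium.
Umod, chr7:119479263-119479512 (- strand): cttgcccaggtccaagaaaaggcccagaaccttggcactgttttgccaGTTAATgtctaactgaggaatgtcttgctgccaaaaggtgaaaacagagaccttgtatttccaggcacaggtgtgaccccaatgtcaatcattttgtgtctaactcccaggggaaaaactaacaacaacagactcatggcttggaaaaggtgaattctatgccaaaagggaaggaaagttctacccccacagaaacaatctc
Slc12a1, chr2:125152350-125152599 (+ strand): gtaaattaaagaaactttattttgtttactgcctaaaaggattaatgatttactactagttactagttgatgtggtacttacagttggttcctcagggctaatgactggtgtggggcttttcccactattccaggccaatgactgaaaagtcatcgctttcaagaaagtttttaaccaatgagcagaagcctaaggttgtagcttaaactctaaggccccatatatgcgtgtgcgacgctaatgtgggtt
Tmem52b, chr6:129512307-129512556 (+ strand): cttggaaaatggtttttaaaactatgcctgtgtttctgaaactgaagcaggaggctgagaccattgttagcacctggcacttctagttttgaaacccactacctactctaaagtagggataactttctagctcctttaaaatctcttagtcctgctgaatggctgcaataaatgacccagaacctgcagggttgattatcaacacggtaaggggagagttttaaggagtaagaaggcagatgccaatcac
Kcnj16, 1 of its 4 annotated starts, chr11:110967783-110968032 (+ strand): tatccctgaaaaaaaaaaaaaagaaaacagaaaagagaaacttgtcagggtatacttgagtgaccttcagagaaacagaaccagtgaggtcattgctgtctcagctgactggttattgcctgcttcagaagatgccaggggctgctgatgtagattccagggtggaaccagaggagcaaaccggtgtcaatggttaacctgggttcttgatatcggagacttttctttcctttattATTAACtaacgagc
Scnn1g, chr7:121734229-121734478 (+ strand): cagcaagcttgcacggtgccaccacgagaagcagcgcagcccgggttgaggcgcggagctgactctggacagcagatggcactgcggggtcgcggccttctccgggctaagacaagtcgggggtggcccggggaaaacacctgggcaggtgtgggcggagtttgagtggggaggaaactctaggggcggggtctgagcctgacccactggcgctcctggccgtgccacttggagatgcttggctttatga
The half-site lies at -202 to -197 in Umod and -14 to -9 in Kcnj16, counted from the start, and the letters are not in the windows of the other 3 genes or of the other 3 starts of Kcnj16. Of the 36 members 26 had a promoter in the RefSeq table, and 3 of those 26 held the half-site, the third being Atp6v1g3 at -194 to -189. It is in the windows of 7.49% of all 27025 genes in the table. AGATAA or TTATCT, the motif of GATA factors, was in 4 of 26 members (11.4% of all genes), TATAAA or TTTATA in 4 of 26 (14.3%) and AAGGTCA or TGACCTT, the half-site of estrogen-related receptors, in 1 of 26 (4.70%). A match is a run of letters in a window, not a shown binding site.

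The culture comparisons ask what progenitors taken at E11.5 express after 8 and 19 days outside the animal. Few members passed: after 8 days 1 of 35 was higher and 1 lower (2.78% and 2.07% of all tested genes, 4.85% together), and after 19 days 2 were higher and 1 lower (7.23% and 9.62% of all tested genes, 16.9% together). Of the 6 loop genes 0 passed at either time (limma; also 0 at an unadjusted p under 0.05). Umod was at -6.13 and -4.47 after 8 days and -6.43 and -5.93 after 19 days, above background on neither 19-day array. Slc12a1, Tmem52b and Kcnj16 were above background on no culture array; the first was at -6.39 and -6.70 and then -6.99 and -5.65. Kcnj1 reached -2.68 on the first 19-day array and -6.86 on the other.

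Emx2 rose in both cultures. It was above background on neither E11.5 array (-6.20 and -5.89), at 0.93 and 0.21 after 8 days and at -0.76 and 0.49 after 19 days. That was at least 27.7-fold higher at 8 days (6.61 ± 1.02, adjusted p = 0.019) and at least 17.0-fold at 19 days (5.91 ± 1.02, adjusted p = 0.0085). The probe lies at chr19:59539142-59539201 of mm9 (+ strand). P0 non-progenitors were at 0.33 and 0.45. The difference of 19-day cells from them was -0.53 and did not pass (limma, 95% interval -2.90 to 1.85, adjusted p = 0.78). That interval is too wide to show equal levels, and 8-day cells were not tested against P0 non-progenitors. Gata3, the other early ureteric factor in the set, was at -5.05 and -1.54 and then -3.66 and -4.75 and did not pass.

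Hsd11b2 fell in culture. It was at -0.69 and -0.02 in E11.5 progenitors, -3.51 and -3.53 after 8 days and -4.63 and -4.14 after 19 days. The fall was 8.98-fold at 8 days (-3.17 ± 0.48, adjusted p = 0.018) and 16.3-fold at 19 days (-4.03 ± 0.48, adjusted p = 0.0022). The groups did not overlap.

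Trpm6 was higher after 19 days, at -2.99 and -3.35, than in E11.5 progenitors (-5.92 and -6.49) or after 8 days (-6.33 and -5.27), where it was above background on neither array. It was at least 2.07-fold above E11.5 (3.03 ± 0.48, adjusted p = 0.0063) and at least 2.04-fold above 8 days (2.63 ± 0.48, adjusted p = 0.018), the one member of 35 that passed between the culture times, where 2.68% of all tested genes were higher and 5.42% lower, 8.1% together; 33.1% of the called genes were higher, and 45.2% after quantile normalization. With another background correction the difference from E11.5 was 0.30 (adjusted p = 0.17) and that from 8 days 0.38 (adjusted p = 0.14).

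All fresh samples and 8-day replicate 1 were on 1 slide, and 8-day replicate 2 and both 19-day samples on the other. Only the 8-day group lay on both slides, so a slide term rests on the gap between its 2 arrays. That gap cannot be told apart from a difference between the 2 8-day samples. With the slide as a term none of these culture calls passed: Emx2 was 6.97 higher at 8 days (adjusted p = 0.056) and 6.63 at 19 days (0.0995), Hsd11b2 -3.16 (0.060) and -4.01 (0.055), and Trpm6 1.97 above E11.5 (0.17) and 2.10 above 8 days (0.063). Within the first slide 8-day replicate 1 is the only culture array, assumed to vary like the other groups. There Emx2 was 6.97 above E11.5 (adjusted p = 0.073) and Hsd11b2 -3.16 (adjusted p = 0.077). Within the second slide Trpm6 was 2.10 above 8-day replicate 2, the only 8-day array there, and did not pass. No slide holds both 19-day and E11.5 cells. The 8-day calls also failed without some arrays: Emx2 without E11.5 replicate 1 (0.058), 8-day replicate 1 (0.078) or 8-day replicate 2 (0.056), and Hsd11b2 without E11.5 replicate 2 (0.057), 8-day replicate 1 (0.068) or 8-day replicate 2 (0.060). Trpm6 between the culture times failed without 8-day replicate 1 (0.061), 19-day replicate 1 (0.10) or 19-day replicate 2 (0.052). Stromal markers moved with the 19-day cells, 3 of 4 higher and 1 lower than in E11.5 progenitors, with sums of 106 and 98.8 against 16.1 and 12.4. At 8 days 2 of 4 were higher and 1 lower, with sums of 18.1 and 9.14. Of the 5 nephron progenitor markers 1 was lower at 8 days and 4 at 19 days. Their part in these differences was not tested.

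**Figure D4:**
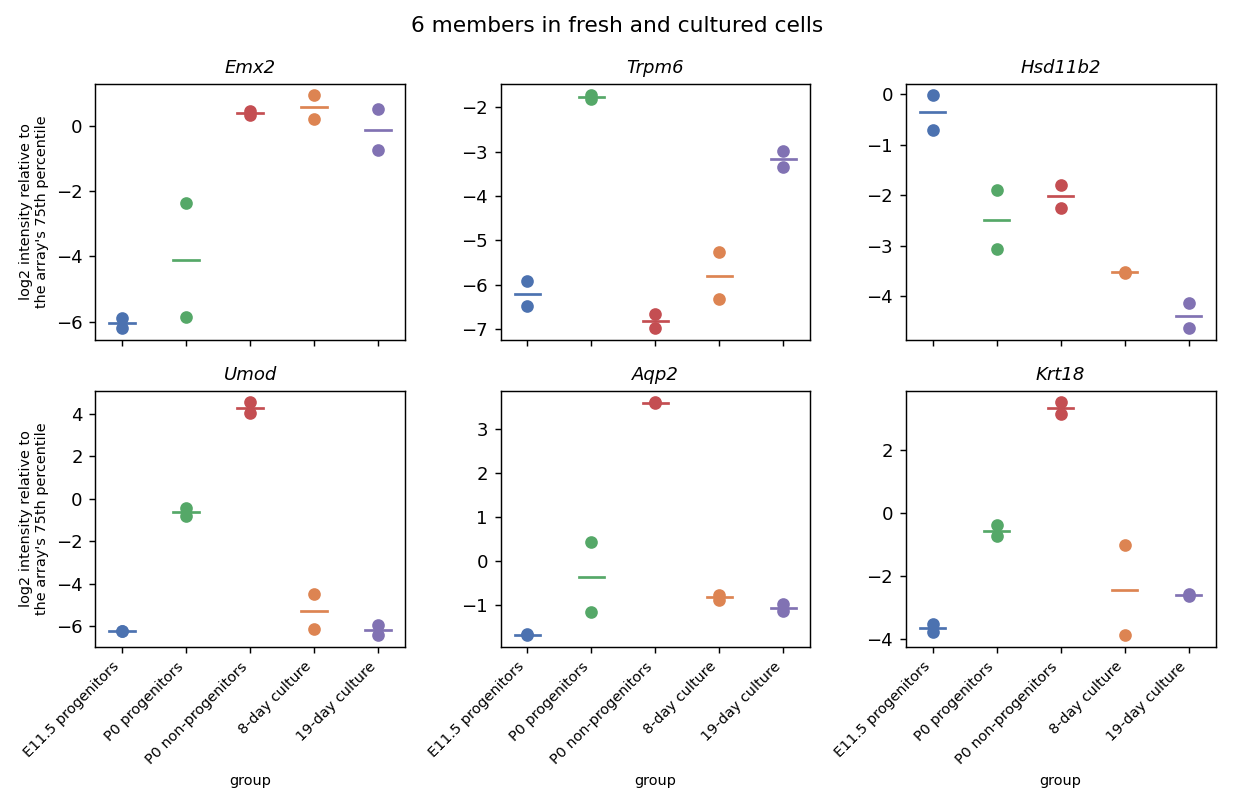
Level (log2 intensity relative to the 75th percentile of the array) of 6 genes in the 5 groups; points are the 2 arrays, bars their mean, and each panel has its own vertical scale. Emx2 is high in both cultures and P0 non-progenitors, Trpm6 in P0 progenitors and then 19-day cells, Hsd11b2 declines from E11.5 to 19 days, and Umod, Aqp2 and Krt18 are highest in P0 non-progenitors.

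The last comparison sets 19-day cells against P0 non-progenitors, where these segments were expressed. Of the 35 genes 23 were lower, 1 was higher and 11 did not pass; 5.02% of all tested genes were lower and 4.4% higher, 9.42% together. The median was -4.54 over the members and 0.21 over all genes. By segment 5 of 6 loop, 5 of 10 distal tubule, 8 of 13 collecting duct, 3 of 3 intercalated and 2 of 3 keratin genes were lower. Markers of other cells moved too: 5 of 5 proximal tubule, 3 of 3 tested erythroid, 3 of 4 endothelial, 2 of 4 podocyte and 1 of 4 leukocyte markers were lower in 19-day cells, and 1 of 4 stromal markers was higher. The summed linear level was 0.424 and 0.439 against 60.1 and 65.7 for the proximal tubule, 0.593 and 1.00 against 686 and 598 for erythroid cells, and 6.336 and 4.998 against 23.7 and 20.6 for endothelium. It was 3.58 and 2.61 against 13.2 and 15.2 for podocytes, 18.1 and 18.9 against 15.7 and 17.8 for leukocytes, and 106 and 98.8 against 37.5 and 45.5 for stroma. The leukocyte sums again came mostly from Csf1r, while Fcer1g was at -3.39 and -2.99 in 19-day cells against 0.46 and 1.01. The part of all these cell types in the differences below was not tested.

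Umod was at least 500-fold lower (adjusted p = 1.3e-04) and Slc12a1 at least 210-fold (adjusted p = 1.3e-04). Kcnj16 was at least 214-fold lower (adjusted p = 6.3e-05) and Tmem52b at least 70.1-fold (adjusted p = 2.1e-04). Of the collecting duct genes Mal, at -6.60 and -6.64 in culture, was at least 285-fold lower (adjusted p = 0.0015), and Scnn1g, at -6.58 and -6.62, at least 121-fold (adjusted p = 6.4e-05). Aqp3 stayed above background at -2.75 and -3.04 and was 85.8-fold lower (adjusted p = 1.3e-04). Aqp2, at -1.14 and -0.98, was 25.2-fold lower (adjusted p = 0.0015). Krt8 was at least 135-fold lower (adjusted p = 0.0041) and Krt18 61.4-fold (adjusted p = 0.0048).

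Of the other loop genes, Kcnj1 was at -2.68 and -6.86 in 19-day cells, above background on the first array alone (-5.94 ± 1.14, adjusted p = 0.019). Bsnd was at -2.53 and -2.40, 3.33-fold lower (adjusted p = 0.017). In the distal set the sodium pump subunit Atp1b1, which did not pass between the newborn sorts, was at -5.10 and -4.25 against 4.34 and 4.17, 489-fold lower (-8.93 ± 1.19, adjusted p = 0.0047). Only 1 of its 19-day arrays was above background. Kcnj10 was above background on neither (-6.92 and -6.86) and at least 10.2-fold lower (adjusted p = 0.0035).

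Among the other collecting duct genes, Scnn1b was above background on neither 19-day array (-4.96 and -4.99), at least 18.9-fold lower (adjusted p = 5.7e-04). Elf5 was at -4.28 and -5.34, 12.1-fold lower (adjusted p = 0.0079), and Hsd11b2 at -4.63 and -4.14, 5.14-fold lower (adjusted p = 0.024), each above background on 1 array of the culture. Of the intercalated genes, Slc4a1 was at -1.76 and -1.91, 13.5-fold lower (adjusted p = 0.043), and Foxi1 at 0.33 and 0.68, 2.60-fold lower (adjusted p = 0.029). Foxi1 was thus the member that differed least among those that passed here.

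Fxyd2 was 375-fold lower (adjusted p = 0.0019), although the 19-day arrays stood apart at -0.61 and -3.91. Sostdc1 was 49.7-fold lower by the probe used (adjusted p = 0.0024), Fxyd4 65.7-fold (adjusted p = 0.0020) and Atp6v1g3 at least 5.52-fold (adjusted p = 0.0046). A second Sostdc1 probe gave a wider difference with the 19-day arrays apart, at -6.18 and -2.20 against 5.20 and 4.99 in P0 non-progenitors. Trpm6 was again the exception, at least 2.59-fold higher (3.66 ± 0.48, adjusted p = 0.0046). The genes that did not pass included Gata3 (-5.45 ± 1.59, adjusted p = 0.076), Calb1 (-4.24 ± 1.20, adjusted p = 0.071), Scnn1a (-3.48 ± 0.97, adjusted p = 0.068) and Krt19 (-3.06 ± 0.91, adjusted p = 0.079).

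The groups lie on different slides, and with the slide as a term 9 of the 24 calls remained: Umod, Slc12a1, Tmem52b, Kcnj10, Kcnj16, Aqp3, Scnn1b, Scnn1g and Krt18. Trpm6 was then 2.60 higher (adjusted p = 0.13). Without any one of the 4 arrays, Bsnd, Slc4a1, Hsd11b2 and Foxi1 failed in each case, with adjusted p of up to 0.099, 0.18, 0.13 and 0.15. Kcnj1 failed without P0 non-progenitor replicate 1 (0.11) or 2 (0.089), and Elf5 without P0 non-progenitor replicate 1 (0.056).

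A second list of 44 other loop, distal and collecting duct genes, of which 43 were tested, was read beside the members. Between the newborn sorts 23 of the 43 were lower in P0 progenitors and 0 higher, with a median of -2.70 (limma, with 33 lower and 0 higher at an unadjusted p under 0.05). For this list too, no share of all tested genes was counted at an unadjusted p. Atp6v0d2, a proton pump subunit, was at -4.69 and -3.87 in P0 progenitors, where the probe used was above background on neither array, and at 1.72 and 1.74 in P0 non-progenitors (adjusted p = 0.0016). That probe, too, entered the tests only through P0 non-progenitors. Cldn10, a tight junction protein of the thick limb, was 33.1-fold lower (adjusted p = 0.0015) and Cldn8, of the distal nephron and collecting duct, 32.3-fold lower (adjusted p = 8.6e-04). Irx1, a transcription factor of the developing tubule, was at -3.39 and 0.22 in P0 progenitors against 3.05 and 3.68 (-4.96 ± 1.02, adjusted p = 0.026). Its difference was -3.15 without P0 progenitor replicate 1 and -6.76 without replicate 2, and it failed without P0 non-progenitor replicate 1 (0.099) or 2 (0.14).

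From E11.5 to P0 progenitors 7 of the 43 rose and 0 fell (limma; 16 and 2 at an unadjusted p under 0.05). S100g, a calcium-binding protein, went from -4.57 and -4.91 to 2.80 and 2.62, at least 122-fold (adjusted p = 0.0015). Tfcp2l1, a transcription factor of the collecting duct, went from -6.37 and -6.33 to 1.91 and 2.18, at least 77.0-fold (adjusted p = 2.1e-04). Tfap2b, a transcription factor of the distal tubule, rose at least 13.1-fold (adjusted p = 0.0019) and Cldn16, a magnesium pathway protein of the thick limb, at least 4.81-fold (adjusted p = 0.0089). Cldn16 failed without P0 progenitor replicate 1 (0.073) or 2 (0.060). All of these were below their P0 non-progenitor levels on both P0 progenitor arrays.

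In culture, against E11.5, 0 of the 43 were higher and 1, Upk1a, lower at 8 days (3 and 3 at an unadjusted p under 0.05, by limma). At 19 days 1 was higher and 2 lower (5 and 5 at an unadjusted p under 0.05, by limma). Of all tested genes 2.78% were called higher and 2.07% lower at 8 days, and 7.23% and 9.62% at 19 days. Sgk1, a steroid-induced kinase that activates ENaC, was at -1.06 and -3.04 at E11.5 and 2.58 and 1.92 after 19 days, 19.8-fold higher (4.30 ± 1.07, adjusted p = 0.032). With the slide as a term that difference was 0.95 (adjusted p = 0.71), and it also failed without E11.5 replicate 2 (0.13), 19-day replicate 1 (0.15) or 19-day replicate 2 (0.085). The 8-day arrays of Sgk1, whose gap sets the slide term, stood at -5.74 and -2.38. From 8 to 19 days Sgk1 rose 79.7-fold (adjusted p = 0.014), a call that failed without 19-day replicate 1. Within the second slide, against 8-day replicate 2 alone, it was 4.64 higher and did not pass. Wfdc2, a secreted protease inhibitor, fell 10.6-fold from E11.5 to 19 days (adjusted p = 0.012, failing without 19-day replicate 1 at 0.065). Upk1a, of the urothelial plaque, fell by 2.07 on the log2 scale at 8 days (adjusted p = 0.041) and by 1.78 at 19 days (adjusted p = 0.029), and neither call passed with the slide as a term (0.097 and 0.19). Against P0 non-progenitors 30 of the 43 were lower in 19-day cells and 0 higher (limma; 34 and 0 at an unadjusted p under 0.05), with a median of -3.79.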

How the data were processed

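RNA was amplified, labelled with Cy3 and hybridised to 1-colour Agilent mouse arrays, 1 per sample. The deposited files hold spot intensity after background subtraction by Agilent Feature Extraction 11.5.1.1, with mm9 probe positions, per the file headers. 1 P0 progenitor file had been saved with 3 significant digits. Each array's log2 intensity was set relative to its 75th percentile (220 to 341 intensity units; no spot saturated), outlier spots were left out and spots of a probe averaged. A gene was represented by its brightest probe, counting only probes that were well above background throughout some group (both of its arrays), and 26277 gene names were tested. One limma model (limma 3.58.1, R 4.3.3) over all 10 arrays, with a mean per group and 5 residual degrees of freedom, gave the differences, with Benjamini-Hochberg adjustment within each of 6 comparisons; a call is an adjusted p under 0.05. The fit was tested on simulated data. The members, gene lists, marker lists and tests were chosen with earlier results of these data known. All members are named, with values for every one that passed and the largest changes that did not; of the second list, up to 4 that passed in each direction. Alternatives were quantile normalization, normexp background correction (offset 50), no filter, a floor, the mean of a gene's probes, a replicate block, a slide block, fits of fewer arrays and leaving out each array. Age is P0 as in the labels; names inside the deposited data read E19.5 for the same samples. Same-numbered replicates did not deviate together: the correlation of their deviations from the group means ran from -0.013 to 0.028 over 10 pairs, so the number was not taken as a pairing.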

Additional observations from a re-analysis of the deposited data

How the results depend on the processing

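No called member turned its direction under any setting, and of the calls 10 of 19 (P0 progenitors against P0 non-progenitors), 5 of 9 (P0 against E11.5 progenitors), 0 of 2, 0 of 3, 0 of 1 (the culture comparisons with E11.5 at 8 and 19 days, and between times) and 9 of 24 (19-day cells against P0 non-progenitors) passed in all alternatives that could be fitted; 19-day cells share no slide with E11.5 or P0 non-progenitors, so a fit of 1 slide was not run there. Leaving out 1 array at a time, members called numbered 11 to 15, 5 to 10, 0 to 4, 3 to 5, 0 to 2 and 18 to 20, and all genes called 632 to 880 (from 2216), 118 to 873 (from 1042), 368 to 894 (from 1274), 2373 to 3402 (from 4429), 878 to 1754 (from 2129) and 1008 to 1709 (from 2476). With the slide as a block, members called were 0 at 8 days, 0 at 19 days and 0 between them, and 9 against P0 non-progenitors, and genes called 644, 1497 and 543 for the comparisons with E11.5 and with P0 non-progenitors. In fits of the compared groups alone, genes called were 440 for P0 against E11.5 progenitors, 0 at 8 days, 1302 at 19 days, 0 between the times and 1475 against P0 non-progenitors; members called were 0 at 8 days and 0 between the times. On 1 slide, members called were 0 at 8 days and 0 between the times, with 694 and 0 genes. Normexp gave 0 members between the times, and a floor on low values gave 1 there, lower and not Trpm6. Normexp moved the median of all genes from 0.0048 to -0.17 at 19 days and from 0.21 to 0.075 against P0 non-progenitors. The replicate block gave 15, 9, 2, 3, 1 and 23 members and 1986, 787, 1062, 4193, 1916 and 2157 genes; Emx2, Bsnd, Krt8 and Elf5 between the newborn sorts failed with it (adjusted p 0.053 to 0.073), and Slc4a1 in the last comparison (0.067). With 2 arrays a group and 66 of 360 member values at a software stand-in, differences between dim levels were not measurable; the cause of each lost call was not tested.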
